A study of Mus musculus with 8 samples.

Results

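Peroxisome proliferator-activated receptors (PPARs) and retinoid X receptors (RXRs) are nuclear receptors, and the 10 genes described here are the PPAR genes (Ppara, Ppard, Pparg), the RXR genes (Rxra, Rxrb, Rxrg) and 4 genes for cofactors that such receptors recruit, the coactivators Ncoa1 and Ncoa2 and the corepressors Ncor1 and Nrip1. Their rows were taken by symbol from a table of 49452 genes, and each symbol matched a single row. The values are FPKM, fragments counted relative to transcript length and to the number of mapped fragments, from RNA-Seq of brown adipose tissue (BAT), the fat depot that burns fuel to make heat.

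The study asked which transcripts follow BAT activity in the cold and on a high-fat diet. It holds 8 libraries of male C57BL/6 mice in 4 groups of 2, and the labels name no transgene, deletion or drug in any of them. Mice of the first comparison were 10 to 12 weeks old and were either kept at 22 °C (replicates 4 and 7) or exposed to 4 °C for 24 h (replicates 2 and 11). The cold mice spent 20 h at 4 °C and were then fasted for 4 h more, and whether the mice at 22 °C were fasted is not given in the sources used here. Mice of the second comparison were 32 weeks old after 28 weeks on either a high-fat diet (HFD, replicates 2 and 6) or the control food (NCD, replicates 6 and 8), which the labels call normal chow and the study's methods a control diet. Nothing in these sources says whether a sample is 1 animal or a pool, so p-values measure the spread between these samples only.

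A PPAR binds DNA as a pair with an RXR, at repeats of the letters AGGTCA, and is switched by fatty acids and molecules made from them. Without ligand the pair tends to hold corepressor complexes such as the one built on NCOR1, and ligand favours coactivators of the NCOA family, which bring histone acetyltransferases to the gene. In brown fat PPARγ is needed to form and maintain adipocytes, PPARα drives genes of fatty acid oxidation, and NRIP1 is known for holding oxidative genes down.

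Brown adipocyte markers were present in every library. Ucp1, the uncoupling protein that defines the cell type, read between 699 and 6462 FPKM. Of 4 white adipocyte markers, Hoxc9 and Tcf21 reached at most 0.0621 and 0.0227 FPKM. Lep, the hormone leptin, read 7.39 and 3.72 at 22 °C, 0.769 and 0.175 at 4 °C, 2.93 and 0.307 on NCD and 61.7 and 83.5 on HFD. Retn, the hormone resistin, read 87.8 and 50.2 at 22 °C, 231 and 112 at 4 °C, 12.4 and 7.89 on NCD and 13.0 and 18.1 on HFD. Markers of other cells differed between the groups compared. The summed FPKM of 11 skeletal muscle markers was 597 and 142 at 22 °C against 4405 and 2015 at 4 °C, and 618 and 1569 on NCD against 210 and 40.2 on HFD. The summed FPKM of 7 macrophage markers came to 63.5 and 45.7 at 22 °C, 109 and 48.6 at 4 °C, 110 and 39.3 on NCD and 192 and 244 on HFD. That of 6 endothelial markers came to 83.5 and 81.6 at 22 °C, 86.99 and 119 at 4 °C, 68.7 and 66.6 on NCD and 102 and 102 on HFD. The summed FPKM of 9 brown adipocyte markers came to 1788 and 2590 at 22 °C, 8664 and 7332 at 4 °C, 6167 and 3790 on NCD and 3143 and 4454 on HFD. That of 5 general adipocyte markers came to 5526 and 4920 at 22 °C, 9463 and 8254 at 4 °C, 8604 and 4698 on NCD and 6166 and 8363 on HFD. Both adipocyte sums were higher at 4 °C without overlap and overlapped between the diets. Ucp1 made up most of the brown sum at 4 °C. Of the 9 brown markers 7 were higher and 2 (Prdm16 and Ebf2) lower without overlap at 4 °C. For genes averaging 1 FPKM or more these shares were 46.9% and 15.3%. On HFD 3 (Dio2, Ppargc1a and Prdm16) were higher and 2 lower without overlap, beside 39.2% and 4.08%. The lower ones were Cidea and Elovl3, with Elovl3 at 234 and 118 on NCD and 18.1 and 17.8 on HFD. Fabp4, a fatty acid carrier, made up most of the general sum and read 3769 and 3472 at 22 °C against 7595 and 6918 at 4 °C. Adipoq, the hormone adiponectin, was lower without overlap, with 717 and 491 against 395 and 302. The median log2 fold change of the 5 general markers in the cold was 0.24, and -0.29 to -0.013 on the 3 other scales described with the scale of the libraries. In such bulk tissue, fewer cells of a type and less RNA per cell cannot be told apart. Other splits touch the same libraries. The 22 °C libraries and NCD replicate 6 list no gene of the X chromosome above 0, whereas the others list 779 to 1175, and this cannot be told apart from the cold comparison. The satellite-repeat gene Gm10800 exceeded 100 FPKM in HFD replicate 2, NCD replicate 8, 22 °C replicate 4 and 4 °C replicate 11, called satellite-high here, and the remaining 4 libraries are called satellite-low.

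The depth behind the values could be read from the lowest values of the table. On a transcript of 2000 bases 1 fragment was worth 0.00436 to 0.00608 FPKM, and by that step the members' values rested on about 232 fragments (Ppard, its lowest library) to about 42470 fragments (Ncor1, its highest). Such numbers speak of counting error alone, since without molecular identifiers PCR copies count as fragments.

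The order of the levels, averaged over the 8 libraries, ran from Pparg at 111 FPKM through Ppara at 50.8, Ncor1 at 29.2, Rxrb at 14.6, Rxrg at 10.7, Rxra at 10.7, Ncoa2 at 5.57, Nrip1 at 4.86 and Ncoa1 at 4.37 to Ppard at 1.65. FPKM is a value per length, so levels of different genes can be set side by side. Most steps of this order held in 8 of 8 libraries. The exceptions were Rxrg over Rxra and Nrip1 over Ncoa1, which held in 4 of 8, and Ncoa2 over Nrip1, which held in 6 of 8. The ranges over the libraries overlapped for every pair of neighbours except Rxra and Ncoa2.

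**Figure D1:**
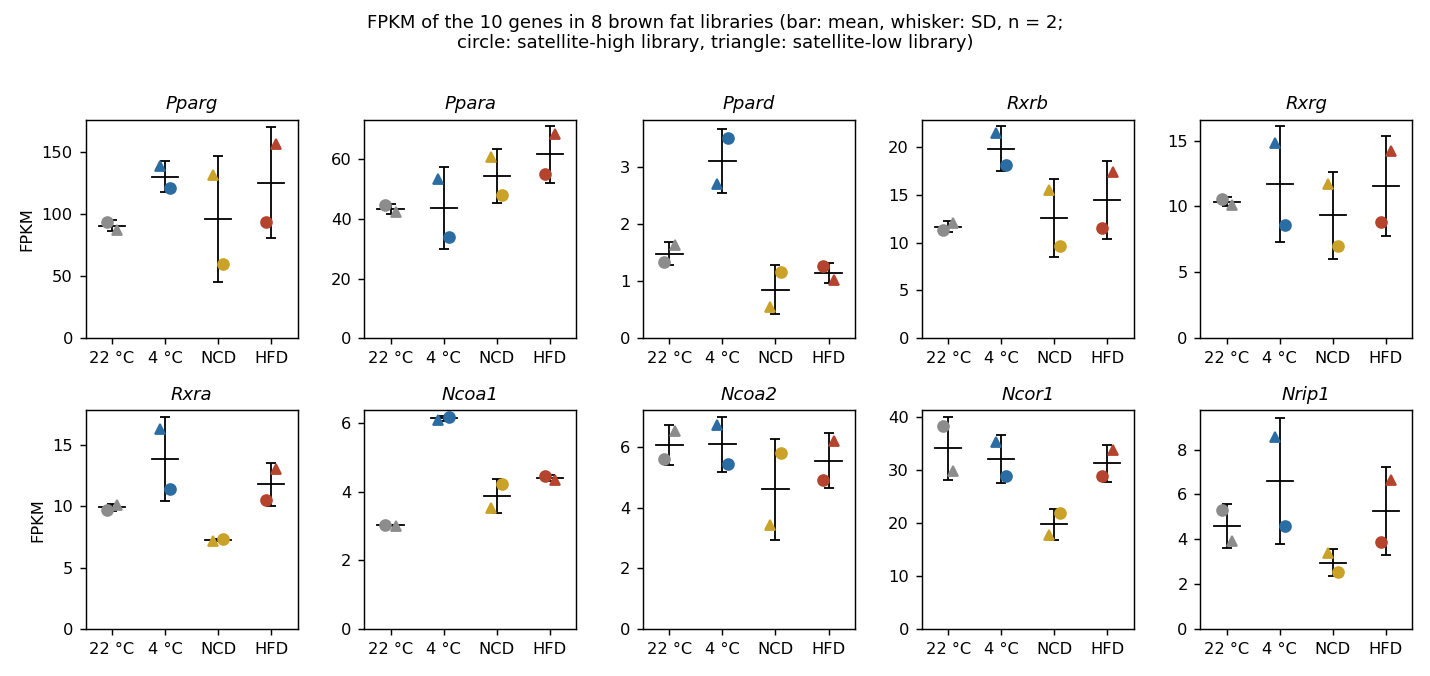
FPKM (vertical axes, each from 0) of the 10 genes in the 4 groups, with 1 point per library, the mean as a bar and the SD as a whisker (n = 2). The points of Ncoa1 and Ppard at 4 °C lie above all others of their panels, and the 2 NCD points of Pparg lie far apart at 132 and 60.2 FPKM.

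Among the receptors, Pparg (chromosome 6, 115360951 to 115490399, plus strand), which encodes the main regulator of adipocyte formation, was highest in every library. It read 93.9 and 87.4 FPKM at 22 °C (replicates 4 and 7), 139 and 121 at 4 °C (2 and 11), 132 and 60.2 on NCD (6 and 8) and 93.6 and 157 on HFD (2 and 6). The groups of the cold comparison did not overlap, and the NCD libraries enclosed 1 of the HFD libraries. Ppara (chromosome 15, 85734983 to 85802819, plus strand), the receptor tied to fatty acid oxidation, read 44.6 and 42.2 at 22 °C, 53.5 and 33.9 at 4 °C, 60.9 and 48.0 on NCD and 55.0 and 68.5 on HFD. Its groups overlapped in both comparisons. The antisense gene Gm44079, which shares positions with Pparg, reached at most 0.644 FPKM. Ppard (chromosome 17, 28232754 to 28301469, plus strand), the most widely expressed PPAR gene across tissues, was the lowest of all members, with 1.34 and 1.63 at 22 °C, 2.71 and 3.50 at 4 °C, 0.551 and 1.15 on NCD and 1.27 and 1.02 on HFD. Its 4 °C libraries were above all 6 others.

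The RXR genes, whose products are the shared partners, lay close together. Rxra (chromosome 2, 27676440 to 27762957, plus strand) read 9.73 and 10.1 at 22 °C, 16.3 and 11.4 at 4 °C, 7.19 and 7.31 on NCD and 10.5 and 13.0 on HFD. Both comparisons left its groups apart, with the cold and the HFD libraries higher. Rxrb (chromosome 17, 34031812 to 34038393, plus strand), the RXR found in most tissues, read 11.3 and 12.1 at 22 °C, 21.5 and 18.2 at 4 °C, 15.5 and 9.70 on NCD and 11.5 and 17.4 on HFD. It was higher in both 4 °C libraries and overlapped between the diets. Rxrg (chromosome 1, 167598384 to 167639623, plus strand), the RXR with the narrowest tissue distribution, skeletal muscle included, read 10.6 and 10.1 at 22 °C, 14.8 and 8.57 at 4 °C, 11.7 and 6.97 on NCD and 8.86 and 14.2 on HFD. Neither comparison separated its groups.

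Within each library the receptor families kept their make-up within limits. Pparg gave 55.0% to 76.5% of the summed FPKM of the PPAR genes, Ppara 21.3% to 43.9% and Ppard 0.285% to 2.21%. Rxrb gave 35.7% to 47.6% of the RXR sum, Rxra 20.9% to 34.1% and Rxrg 22.5% to 34.0%. The PPAR sum was 3.71 to 5.62 times the RXR sum, lowest in 4 °C replicate 2 and highest in NCD replicate 6.

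**Figure D2:**
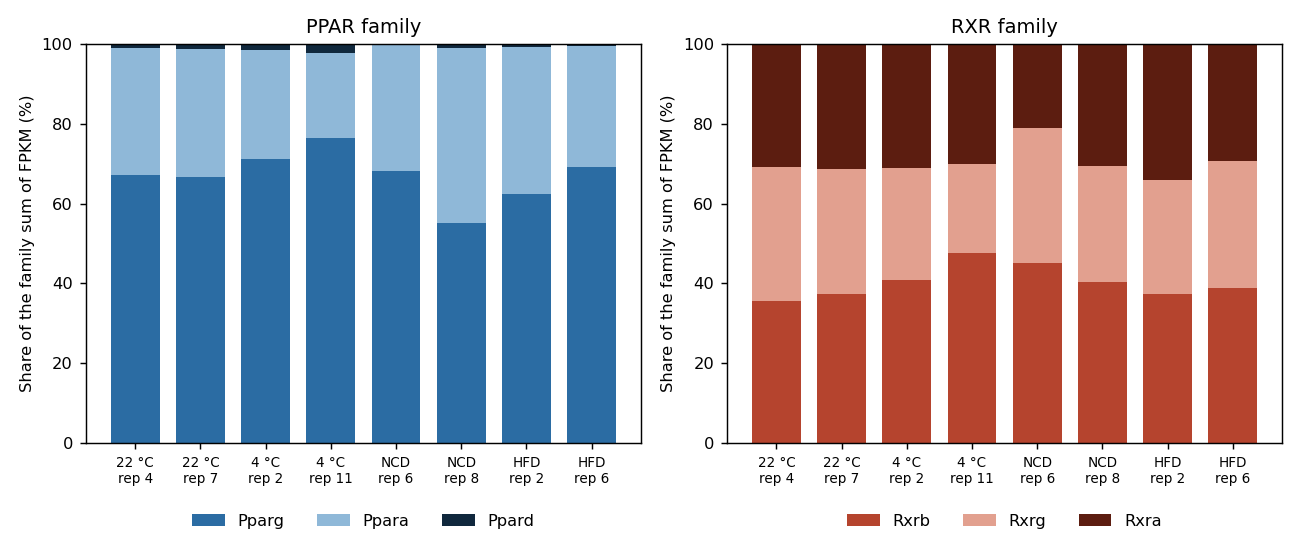
Share of each gene in the summed FPKM of its family (vertical axis, percent) in each of the 8 libraries, PPAR genes on the left and RXR genes on the right. Pparg takes 55.0% to 76.5% of its family, whereas no RXR gene exceeds 47.6% of its own.

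The coactivators are NCOA proteins of the steroid receptor coactivator family. Ncoa1 (chromosome 12, 4247363 to 4477182, minus strand) read 3.04 and 3.01 at 22 °C, 6.10 and 6.20 at 4 °C, 3.54 and 4.23 on NCD and 4.48 and 4.33 on HFD. The 4 °C libraries were above all 6 others and close to each other. Ncoa2 (chromosome 1, 13139105 to 13374083, minus strand) read 5.60 and 6.52 at 22 °C, 6.73 and 5.45 at 4 °C, 3.42 and 5.78 on NCD and 4.91 and 6.19 on HFD. It overlapped in both comparisons and varied least of the members, by 1.97-fold between its lowest and highest library.

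The corepressor gene Ncor1 (chromosome 11, 62316426 to 62458541, minus strand) read 38.3 and 29.8 at 22 °C, 35.2 and 28.8 at 4 °C, 17.7 and 21.8 on NCD and 28.8 and 33.7 on HFD. Both NCD libraries were below all 6 others. Ncor1 shares positions on the opposite strand with Ttc19, which reached 21.2 FPKM, and with Pigl, which reached 1.96, and whether the FPKM used strand is not given in the sources used here. Nrip1 (chromosome 16, 76287400 to 76373827, minus strand) read 5.30 and 3.91 at 22 °C, 8.58 and 4.61 at 4 °C, 3.38 and 2.52 on NCD and 3.87 and 6.67 on HFD. It was higher in both HFD libraries and overlapped in the cold. Positions are those of the table on GRCm38, and all 10 genes are protein-coding.

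RefSeq promoter windows of GRCm38.p6, which run from 250 bases before a start to 50 bases after it, were found for 9 of the 10 genes, 16 windows in all. The windows of Ncoa1 and Ppard and the first of 2 windows of Rxrb are printed because these genes had the largest fold changes in the cold, and 2 windows of Pparg because its starts differ in composition. Capitals mark the letters GGGCGG (GC box), CCAAT and AGGTCA (the core site of a PPAR or RXR, called core site here) on either strand. The windows are chr12:4477133-4477432 on the minus strand for Ncoa1, chr17:28232504-28232803 for Ppard, chr17:34031562-34031861 for Rxrb, and chr6:115360894-115361193 and chr6:115421816-115422115 for the first and the third start of Pparg, all of these on the plus strand.
Ncoa1: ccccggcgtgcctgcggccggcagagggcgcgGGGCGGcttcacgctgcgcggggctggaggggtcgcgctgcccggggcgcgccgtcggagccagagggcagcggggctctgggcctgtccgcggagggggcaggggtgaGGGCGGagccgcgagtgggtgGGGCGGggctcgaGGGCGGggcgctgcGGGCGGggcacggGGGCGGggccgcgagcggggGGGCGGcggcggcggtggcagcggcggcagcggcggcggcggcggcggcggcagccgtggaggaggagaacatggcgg
Ppard: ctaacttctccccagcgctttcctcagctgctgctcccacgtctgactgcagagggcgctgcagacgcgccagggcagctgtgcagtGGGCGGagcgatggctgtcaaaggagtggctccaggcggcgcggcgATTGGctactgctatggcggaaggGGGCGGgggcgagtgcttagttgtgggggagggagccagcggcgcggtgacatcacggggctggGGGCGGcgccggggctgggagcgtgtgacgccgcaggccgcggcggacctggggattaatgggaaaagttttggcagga
Rxrb: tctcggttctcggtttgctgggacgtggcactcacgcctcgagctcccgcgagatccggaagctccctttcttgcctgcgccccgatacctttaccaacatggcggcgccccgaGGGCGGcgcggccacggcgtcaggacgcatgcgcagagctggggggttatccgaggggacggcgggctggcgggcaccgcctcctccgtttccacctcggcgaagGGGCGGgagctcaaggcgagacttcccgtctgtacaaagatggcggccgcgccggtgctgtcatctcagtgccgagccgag
Pparg, the first start: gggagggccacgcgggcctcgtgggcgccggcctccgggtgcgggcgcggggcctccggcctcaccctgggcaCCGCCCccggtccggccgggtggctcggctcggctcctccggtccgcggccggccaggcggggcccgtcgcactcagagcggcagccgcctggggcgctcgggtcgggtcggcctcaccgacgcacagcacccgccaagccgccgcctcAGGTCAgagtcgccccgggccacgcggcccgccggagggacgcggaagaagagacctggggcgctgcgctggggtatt
Pparg, the third start: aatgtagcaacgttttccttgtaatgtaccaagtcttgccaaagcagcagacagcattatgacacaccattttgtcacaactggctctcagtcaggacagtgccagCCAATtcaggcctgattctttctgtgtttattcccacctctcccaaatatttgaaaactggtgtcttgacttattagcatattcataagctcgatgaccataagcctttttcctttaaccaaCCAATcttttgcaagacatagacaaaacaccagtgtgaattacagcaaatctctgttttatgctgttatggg

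The Ncoa1 window held 7 GC boxes and had 84.7% G and C, against a median of 52.7% over 32851 windows. Ppard held 3 GC boxes and 1 CCAAT, and the printed Rxrb window 2 GC boxes, whereas the second Rxrb window (chr17:34032100-34032399) held 4. The first start of Pparg held 1 core site and 1 GC box at 80.3% G and C, whereas the third held no GC box and 2 CCAAT at 40.3%. Over all member windows the GC box occurred in 10 of 16, beside 35.7% of all windows of this length. The core site occurred in 4 of 16 beside 16.3%, and CCAAT in 4 of 16 beside 37.4%. The spaced repeat AGGTCANAGGTCA, which contains the core site at both ends, was in 0 of 16 member windows and 0.0396% of all windows, and the palindrome TGACGTCA, the cAMP response element, in 0 of 16 and 1.79%. These are counts of letters in these windows only.

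The first comparison asked how the genes differed between 4 °C and 22 °C. With limma on log2(FPKM + 1), none of the 10 members passed the threshold of an adjusted p under 0.05 with at least a 2-fold change, as 1.44% of 17470 genes did (1.22% higher and 0.223% lower). Ncoa1 came closest. At an unadjusted p under 0.05 there were 3 members (Ncoa1, Ppard and Rxrb), beside 24.5% of all genes. The groups were apart, with both 4 °C libraries higher, for 5 of the 10 (Ncoa1, Ppard, Rxrb, Pparg and Rxra), beside 37.9% of all genes and 46.9% of genes averaging 1 FPKM or more, and no member was lower without overlap, beside 20.6% and 15.3%. The skeletal muscle markers were higher in the same libraries, 11 of 11 without overlap with a median log2 fold change of 3.30, and their part in the members' values was not tested.

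Ncoa1 went from 3.02 ± 0.0226 to 6.15 ± 0.0691 FPKM (mean ± SD, n = 2), a log2 fold change of 0.83 (SE 0.17, 95% interval 0.40 to 1.26, limma adjusted p 0.0681). The difference was 0.83 between the satellite-high libraries and 0.82 between the satellite-low ones. Its limma adjusted p was 0.0490 with X, Y and mitochondrial genes kept, a fit that adds X and Y rows listed at 0 in both 22 °C libraries. It rose when 22 °C replicate 4 was left out. Ppard had a log2 fold change of 0.72 (SE 0.19, limma adjusted p 0.101), with 0.95 and 0.49 within the satellite-high and satellite-low libraries. Rxrb had 0.71 (SE 0.20, limma adjusted p 0.112), with 0.64 and 0.78. Since 1 is added before the logarithm, the change of the low genes is understated, and the ratio of the group means was 2.03 for Ncoa1, 2.09 for Ppard and 1.70 for Rxrb.

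The other receptors moved less in relation to their spread. Pparg had a log2 fold change of 0.52 (95% interval -0.08 to 1.11) and Rxra of 0.43 (-0.15 to 1.01), and the limma adjusted p was 0.249 and 0.314. Ppara at -0.03 (-0.74 to 0.68) and Rxrg at 0.11 (-0.60 to 0.83) differed in sign between the library types, with -0.39 and 0.33 for Ppara and -0.28 and 0.50 for Rxrg in the satellite-high and satellite-low libraries. Among the cofactors, Nrip1 had 0.40 (-0.39 to 1.18), Ncoa2 0.0037 (-0.50 to 0.50) and Ncor1 -0.08 (-0.68 to 0.52). They too differed in sign between satellite-high and satellite-low libraries, with -0.17 and 0.96 for Nrip1, -0.033 and 0.040 for Ncoa2 and -0.40 and 0.23 for Ncor1. Without 4 °C replicate 2 the fold change was 0.012 for Nrip1 and 0.19 for Rxra. These intervals leave room for changes of either sign. The limma adjusted p of these 5 genes was 0.476 to 0.994.

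The second comparison asked how the genes differed between HFD and NCD. Here too 0 of 10 members passed the limma threshold, beside 0.0684% of 17535 genes (0.0513% higher and 0.0171% lower), and 0 of 10 had an unadjusted p under 0.05, beside 14.4% of all genes. Both HFD libraries were higher for 4 of the 10 (Ncor1, Nrip1, Rxra and Ncoa1), beside 39.9% of all genes and 39.2% of genes averaging 1 FPKM or more. None was lower without overlap, beside 5.8% and 4.08%. Of the markers, 10 of 11 skeletal muscle genes were lower without overlap on HFD (median log2 fold change -3.67) and 7 of 7 macrophage genes higher (median 1.57). Of 6 endothelial genes 3 were higher without overlap and 0 lower (median 0.64). Of the white adipocyte markers, Lep and Retn were higher on HFD without overlap and Hoxc9 and Tcf21 were too low to be tested. Lep passed the limma threshold (log2 fold change 5.005, adjusted p 0.0425), which it missed in 6 alternatives, among them quantile normalization (0.147), the rescaled sum (0.140) and a pseudocount of 0.1 (0.130). The part of these markers in the members' values was not tested.

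Ncor1 went from 19.7 ± 2.92 to 31.3 ± 3.49 FPKM, a log2 fold change of 0.64 (SE 0.39, 95% interval -0.28 to 1.56, limma adjusted p 0.511). Nrip1 had 0.64 (SE 0.34, adjusted p 0.453 in limma) and Rxra 0.63 (SE 0.33, adjusted p 0.447). All 3 were higher on HFD within the satellite-high and within the satellite-low libraries, by 0.39 and 0.90 for Ncor1, 0.47 and 0.81 for Nrip1 and 0.47 and 0.78 for Rxra. With library type as a covariate their limma adjusted p was 0.0702, 0.0456 and 0.0511, and the fold change of Nrip1 stayed below the 2-fold limit. The same fit moved the whole table, with 744 genes past the threshold instead of 12. The remaining log2 fold changes ran from 0.15 for Ncoa1 to 0.44 for Pparg, with limma adjusted p of 0.679 to 0.890. The interval of Pparg was the widest (-0.95 to 1.83). Ncoa2 differed in sign between the library types, at -0.20 and 0.70 in the satellite-high and satellite-low libraries.

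**Figure D3:**
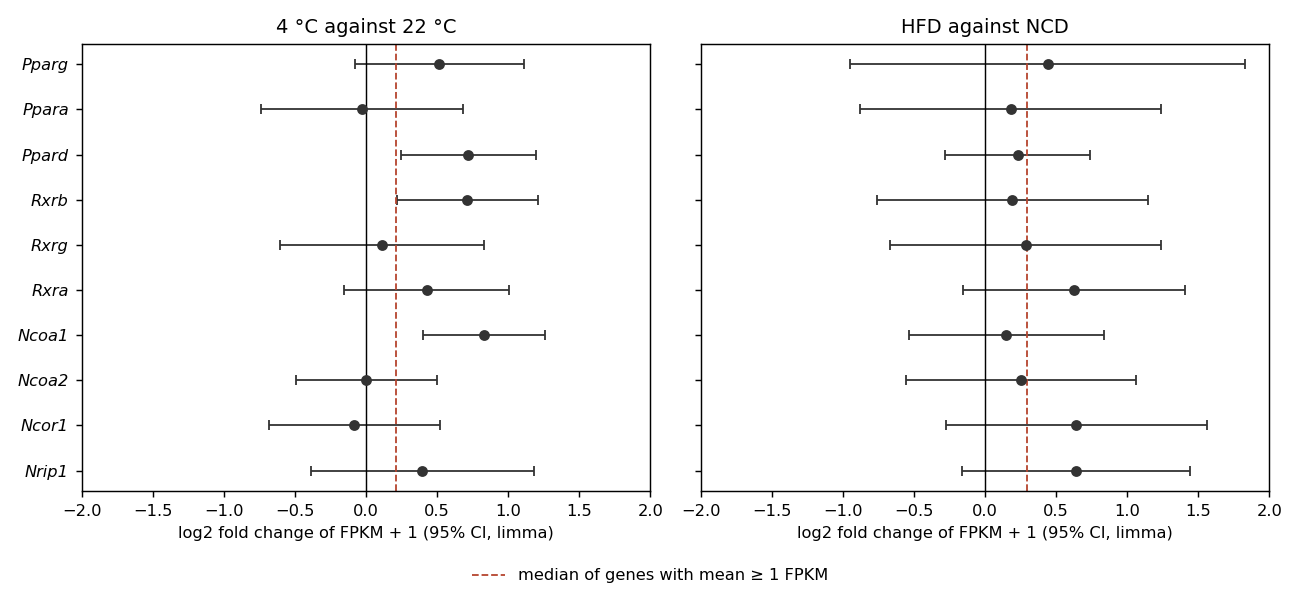
Log2 fold change of FPKM + 1 (horizontal axis) of the 10 genes for 4 °C against 22 °C and for HFD against NCD, with 95% intervals from limma. The dashed line is the median fold change of genes averaging 1 FPKM or more, 0.21 in the cold and 0.29 on the diet, and all 10 diet intervals cross it.

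The scale of the libraries bears on these directions. Over genes averaging 1 FPKM or more, the median log2 fold change as deposited was 0.21 at 4 °C and 0.29 on HFD. After median centring, quantile normalization and rescaling to the autosomal protein-coding sum it was -0.05, -0.04 and -0.12 in the cold and -0.06, -0.01 and 0.16 on the diet. Relative to the deposited median, the fold change in the cold was 0.62 for Ncoa1, 0.51 for Ppard, 0.50 for Rxrb, 0.30 for Pparg and 0.22 for Rxra, and -0.29 for Ncor1, -0.24 for Ppara and -0.21 for Ncoa2. Ncoa1, Ppard, Rxrb, Rxra and Nrip1 stayed above 0 in the cold under all 3 other scales, whereas Pparg was at -0.0072 after quantile normalization, and Rxrg and Ncoa2 turned negative under all 3. On the diet, Ncor1, Nrip1, Rxra and Pparg stayed above 0 under all 3 scales. The count of members above 0 on the diet was 10 of 10 as deposited and with the rescaled sum, 4 of 10 with median centring and 5 of 10 with quantile normalization.

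**Figure D4:**
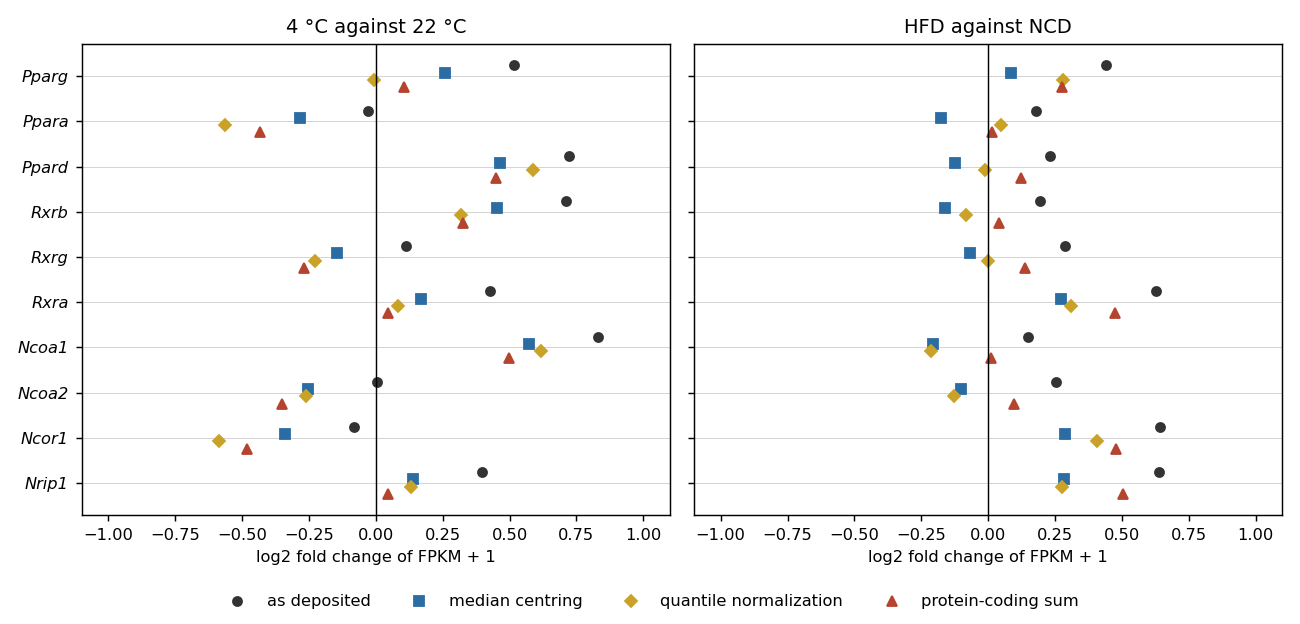
Log2 fold change of FPKM + 1 (horizontal axis) of the 10 genes under 4 scales of the same libraries, as deposited, median centring, quantile normalization and rescaling to the autosomal protein-coding sum. In the cold, Ncoa1 lies between 0.50 and 0.83 on every scale, and on the diet Ncoa1 lies between -0.21 and 0.15.

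Ratios of 2 genes within a library do not depend on its scale. With 2 libraries against 2, the exact two-sided permutation test cannot go below p = 0.333, so 6 ratios were compared in each condition as descriptions. The ratio of the corepressor gene Ncor1 to the coactivator gene Ncoa1 was 12.6 and 9.89 at 22 °C and 5.76 and 4.65 at 4 °C, a log2 difference of -1.11. On the diet the same ratio was 4.99 and 5.15 on NCD and 6.43 and 7.78 on HFD, a log2 difference of 0.48. The ratios of the groups did not overlap in either comparison. In the cold it was Ncoa1 whose own groups were apart while those of Ncor1 overlapped, and on the diet both genes were higher without overlap.

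Pparg over Ppara was 2.10 and 2.07 at 22 °C and 2.60 and 3.59 at 4 °C, a log2 difference of 0.55, and it overlapped between the diets. Rxrb over Rxra was 1.16 and 1.20 at 22 °C and 1.32 and 1.59 at 4 °C, a log2 difference of 0.30. Rxrg over Rxra was 1.09 and 1.004 at 22 °C and 0.906 and 0.749 at 4 °C, a log2 difference of -0.34. Ppard over Pparg was 0.0142 and 0.0187 at 22 °C and 0.0195 and 0.0289 at 4 °C. Nrip1 over Ncoa1 overlapped in both comparisons. All 5 ratios other than Nrip1 over Ncoa1 were apart in the cold, each with p = 0.333 in the exact permutation test.

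**Figure D5:**
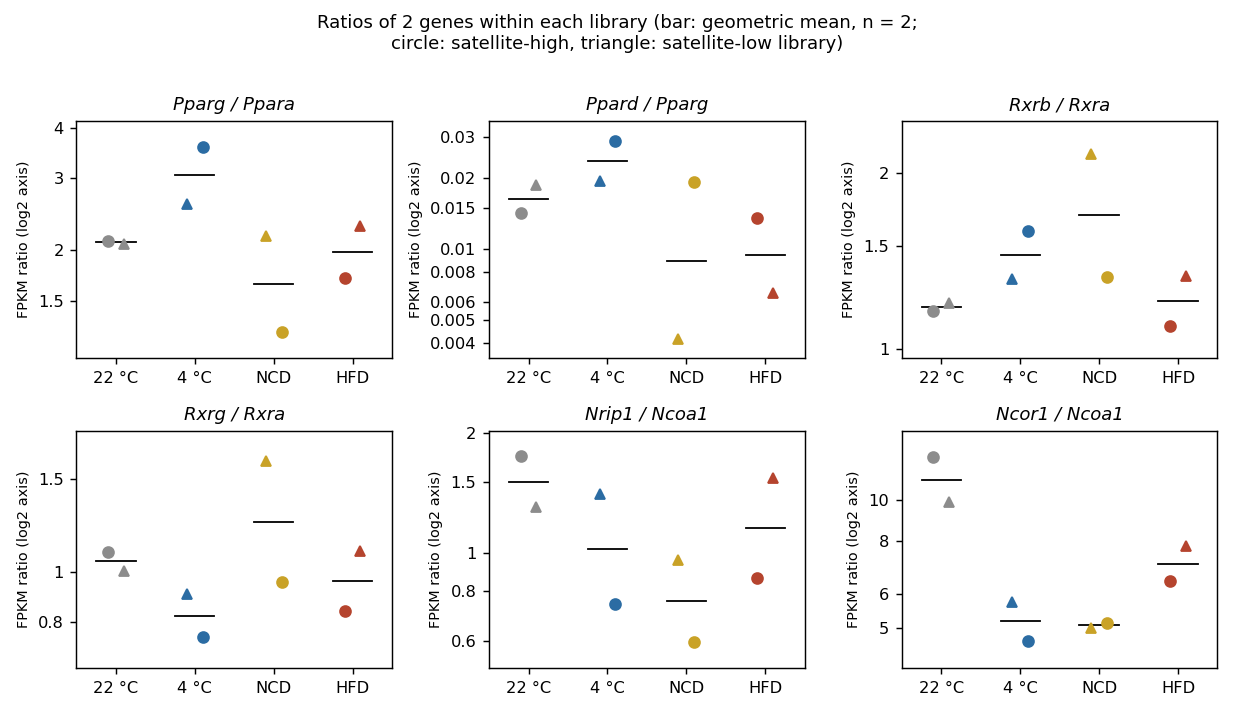
FPKM ratio of 2 genes within each library (vertical axes, log2 scale) in the 4 groups, with 1 point per library and the geometric mean as a bar (n = 2). Ncor1 over Ncoa1 lies at 9.89 and 12.6 at 22 °C and between 4.65 and 7.78 in the other 6 libraries.

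The other genes of the pathway were grouped by role. Of 14 further coactivator genes, 2 passed the limma threshold in the cold, both higher. Without overlap 6 of the 14 were higher and 2 lower, beside 46.9% and 15.3% of genes averaging 1 FPKM or more. The skeletal muscle markers were higher in the same libraries, and their part in these values was not tested. Ppargc1a, the coactivator that PPARs and other receptors use in cold-exposed brown fat, read 10.9 and 10.8 FPKM at 22 °C and 107 and 73.6 at 4 °C, a log2 fold change of 2.92 (SE 0.25, limma adjusted p 0.0208). Lpin1, a phosphatidate phosphatase that also acts as a coactivator of PPARα, read 41.7 and 49.2 against 132 and 132, a log2 fold change of 1.52 (SE 0.23, limma adjusted p 0.0495). The median over this list was 0.13, below the 0.21 of all genes averaging 1 FPKM or more, and it was -0.13 to -0.24 on the other 3 scales. Prdm16, a coregulator of brown adipocyte identity, read 4.54 and 8.03 against 3.12 and 3.72 (log2 fold change -0.68, limma adjusted p 0.216). Of 7 further corepressor genes tested 0 passed, with a median of 0.25 (-0.081 to 0.033 on the other scales), and Tbl1xr1, a part of the NCOR1 complex, had the largest value at 0.67 (limma adjusted p 0.188).

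Of 11 other receptors that pair with RXR, 0 passed the limma threshold in the cold, and their median was -0.15 (-0.53 to -0.40 on the other scales). There were 2 higher and 3 lower without overlap, beside 37.9% and 20.6% of all genes, and 9 of 11 fold changes were below 0. Nr1h3, the oxysterol receptor LXRα, read 20.2 and 23.2 FPKM at 22 °C and 43.9 and 35.5 at 4 °C, a log2 fold change of 0.84 (SE 0.22, limma adjusted p 0.104). Rarb, a retinoic acid receptor, had 0.75 (limma adjusted p 0.121). On the lower side were Rarg, another retinoic acid receptor, at -0.47 (limma adjusted p 0.184) and Thra, a thyroid hormone receptor, at -0.40 (0.261). Nr1i2 and Nr1i3 were too low to be tested.

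Of 20 oxidative targets 2 passed, both higher, and 15 were higher and 2 lower without overlap, beside 46.9% and 15.3% of genes averaging 1 FPKM or more, as 19 of these 20 and all 20 adipocyte targets did. The skeletal muscle markers were higher in the same libraries, and skeletal muscle also expresses oxidative genes of the list such as Pdk4. The part of muscle in these counts was not tested. Ehhadh, an enzyme of peroxisomal fatty acid oxidation, read 19.8 and 16.2 FPKM at 22 °C and 149 and 113 at 4 °C (log2 fold change 2.79, SE 0.25, limma adjusted p 0.0215). Fgf21, a secreted metabolic hormone, read 0.0611 and 0.104 against 12.6 and 5.91 (log2 fold change 3.16, SE 0.34, limma adjusted p 0.0298). Pdk4, which blocks pyruvate entry to the mitochondrion, read 366 and 271 against 1340 and 706 (1.62, limma adjusted p 0.104). The list's median was 0.58, and 0.17 to 0.32 on the other scales. Of 20 adipocyte targets 0 passed, 13 were higher and 4 lower without overlap beside the same shares, and the median was 0.41, which turned to -0.086 with quantile normalization. Ucp1 among them read 699 and 1427 at 22 °C and 6462 and 5371 at 4 °C (2.56, SE 0.51, limma adjusted p 0.0646).

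Of 9 genes tested that supply or carry ligands, 1 passed in the cold. Fabp3, a carrier of fatty acids that heart and skeletal muscle also express, read 131 and 159 FPKM at 22 °C and 613 and 664 at 4 °C (log2 fold change 2.14, SE 0.28, limma adjusted p 0.0442), and the skeletal muscle markers given above were higher in the same libraries, the part of which in this value was not tested. Aldh1a1, which makes retinoic acid, read 4.99 and 2.40 against 24.8 and 8.21 (1.77, limma adjusted p 0.137). Of 9 adipogenic transcription factors 2 passed, both higher. Without overlap 5 were higher and 3 lower, beside 37.9% and 20.6% of all genes. Cebpd, an early factor upstream of Pparg in adipocyte formation, read 0.855 and 0.675 against 9.80 and 5.19 (2.21, SE 0.30, limma adjusted p 0.0442), and Klf15, a factor of lipid and amino acid metabolism, read 12.2 and 8.94 against 53.8 and 48.2 (2.18, SE 0.23, limma adjusted p 0.0294). Cebpb, a partner of Cebpd, had 1.04 (limma adjusted p 0.139). On the lower side, Srebf1 read 42.7 and 65.1 at 22 °C against 24.4 and 28.5 at 4 °C (-0.97, limma adjusted p 0.117). Cebpa read 129 and 171 against 106 and 84.3 (-0.64, limma adjusted p 0.230). The list medians were 0.54 for ligand supply and carriers (0.086 to 0.28 on the other scales) and 0.26 for adipogenic factors, the latter -0.0020 with median centring.

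All 7 of these calls were lost without 4 °C replicate 2 (limma adjusted p 0.119 to 0.147) or without 4 °C replicate 11 (0.0566 to 0.0721). Without 22 °C replicate 7 the calls of Lpin1 (0.150), Fabp3 (0.0751), Cebpd (0.0697) and Klf15 (0.0840) were lost, and without 22 °C replicate 4 those of Lpin1 (0.253) and Fabp3 (0.150). The 7 calls were also lost with no filter on low values (0.153 to 0.170) and without the intensity trend (0.0601 to 0.0835), and those of Lpin1 (0.0952) and Fabp3 (0.0860) with quantile normalization. Other settings added calls. With library type as a covariate 12 genes passed, the 7 and Ucp1 (0.0272), Plin2 (0.0294), Lpl (0.0405), Cebpb (0.0423) and Plin5 (0.0486). With median centring 10 passed, the 7 and Ucp1 (0.0341), Plin2 (0.0463) and, lower, Srebf1. Ucp1 also passed with a minimum of 1 FPKM (0.0437) and with X, Y and mitochondrial genes kept (0.0491). The latter fit adds X and Y rows listed at 0 in both 22 °C libraries. The fold changes of the 12 genes kept their sign in each of these fits.

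On the diet 0 of 89 genes of these lists passed the limma threshold, and 7 had an unadjusted p under 0.05, beside 14.4% of all genes. With library type as a covariate 3 passed, namely Ehhadh (limma adjusted p 0.00739), Cidea (0.0484) and Cpt1a (0.00829), and 744 of all genes did. Ehhadh read 71.2 and 108 FPKM on NCD and 21.3 and 24.4 on HFD (log2 fold change -1.89, SE 0.45, limma adjusted p 0.163), and without NCD replicate 6 its adjusted p was 0.0132. Cpt1a, which brings fatty acids into the oxidation pathway of mitochondria, went the other way, from 4.41 and 4.41 on NCD to 11.9 and 10.9 on HFD (1.20, SE 0.31, limma adjusted p 0.180). Angptl4, a secreted inhibitor of lipoprotein lipase, had a log2 fold change of 0.96 (limma adjusted p 0.448), Plin4, a lipid droplet coat protein, 0.84 (0.497), Aldh1a1 0.87 (0.425) and Cebpd 0.71 (0.304). Ncoa3, the third NCOA coactivator of the family, read 2.36 and 2.32 against 4.35 and 4.88 (0.75, SE 0.28, limma adjusted p 0.295). Sin3a, a scaffold of corepressor complexes, had 0.64 (limma adjusted p 0.445), Rarg, a retinoic acid receptor, 0.50 (0.454), and Cidea, a lipid droplet protein of brown adipocytes, -1.07 (0.512). The list medians were 0.38 for further coactivators, 0.29 for further corepressors, 0.20 for RXR partners, -0.11 for oxidative targets, 0.05 for adipocyte targets, 0.41 for ligand supply and carriers and 0.27 for adipogenic factors, beside 0.29 for all genes averaging 1 FPKM or more. With median centring they were 0.022, -0.066, -0.16, -0.46, -0.31, 0.054 and -0.082 in this order, beside -0.06, so that 5 of the 7 were negative. With quantile normalization they were 0.040, -0.051, 0.0046, -0.19, 0.0046, 0.28 and 0.087, beside -0.01. With the rescaled sum they were 0.23, 0.17, 0.065, -0.27, -0.11, 0.27 and 0.11, beside 0.16.

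Across the 8 libraries Ppard, Nrip1 and Pparg varied most among the members, with an SD of log2(FPKM + 1) of 0.49, 0.46 and 0.45. The genes with the most similar pattern were found among 10877 autosomal genes averaging 1 FPKM or more, by the root mean square difference of centred log2(FPKM + 1) over the 8 libraries. For Ppard they were Lrp10 (0.0777), Gm38034 (0.105) and Arid5b (0.116), against a median of 0.541 over all these genes. For Nrip1 they were Isg20l2 (0.112), Oat (0.125) and Rbm42 (0.129), against 0.404. For Pparg they were Commd9 (0.0653), Taf10 (0.0707) and Rpl19 (0.0834), against 0.378. The points share library and scale. The sum of FPKM over autosomal protein-coding genes was 249361 in NCD replicate 6 and 167217 in NCD replicate 8, the pair in which Pparg read 132 and 60.2, and the part of this in the Pparg values was not tested.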

How the data were processed

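BAT RNA was depleted of ribosomal RNA, made into directional libraries and sequenced as paired ends. The authors aligned the reads to GRCm38 with TopHat2 2.0.10 and deposited FPKM per gene from Cufflinks (2.2.1 in the submitters' processing notes), 1 value per library, without pooling. The counts on which the authors ran DESeq2 were not used here. Groups came from the sample labels.

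Linear models of log2(FPKM + 1), moderated by eBayes with a trend on intensity, were fitted in limma 3.58.1 (R 4.3.3) to the 4 libraries of a comparison without covariates, over autosomal genes with at least 0.1 FPKM in 2 libraries. X, Y and mitochondrial genes were left out because 3 libraries list all X and Y genes and all but at most 1 mitochondrial gene at 0. P-values are two-sided with Benjamini-Hochberg adjustment over all genes tested, and the threshold was an adjusted p under 0.05 with at least a 2-fold change. Because 1 is added, fold changes of low genes are understated. Standard errors are the moderated ones of limma. The fit was tested on simulated data. Depth was read from genes whose low values, in 99.2% to 99.7% of cases, were whole fragments within 0.1.

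The members and the gene lists were chosen with earlier results of these data known. All 10 members are named. Of the pathway lists, genes past the threshold are named and up to 4 others per list and comparison with the largest fold change among genes whose groups do not overlap; of the markers, the sums and defining genes. Alternatives covered the pseudocount, filter, scale, X, Y and mitochondrial genes, library type, trend, a fit of all 8 libraries and leaving out each replicate. Acta1 and Wdnm1, listed as markers, were not analysed here. Exact permutation tests of within-library ratios used SciPy 1.17.1 and NumPy 2.4.6.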

Additional observations from a re-analysis of the deposited data

How the results depend on the processing

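The count of members past the threshold was 0 in both comparisons under each alternative run. The limma adjusted p alone fell under 0.05 for Ncoa1 in the cold with X, Y and mitochondrial genes kept (0.0490). It did so for Nrip1 on the diet with library type as a covariate (0.0456). Both 22 °C libraries list all X and Y genes at 0, so the kept rows bring differences fixed by the listing into the adjustment of Ncoa1. At an unadjusted p under 0.05 in limma, the members numbered 2 to 4 in the cold over the fits with no replicate left out. The 2 came with median centring and the rescaled sum, beside 4714 and 5421 of 17470 genes. The 4 came with quantile normalization and without the trend, beside 4681 and 4170. On the diet the members numbered 0 as deposited, beside 14.4% of all genes, and at most 3 in the alternatives. The number of genes past the threshold in the cold, 252, became 475 with a pseudocount of 0.1, 529 with a minimum of 1 FPKM, 489 with quantile normalization (312 higher, 177 lower, against 213 and 39), 757 with median centring (493 and 264), 579 with the rescaled sum (311 and 268), 920 with X, Y and mitochondrial genes kept, 859 with library type as a covariate, 439 in 1 fit of 8 libraries, and 0 without a filter or without an intensity trend (4689 and 4170 genes at an unadjusted p under 0.05). Leaving out a replicate gave 0 (without either 4 °C replicate) to 244 (122 without 22 °C replicate 7). The 7 pathway genes became 12 with library type as a covariate, 0 without a filter or trend, and 0 to 5 without 1 replicate. On the diet the 12 genes became 24 with a minimum of 1 FPKM, 45 with median centring (23 higher and 22 lower, against 9 and 3), 744 with library type as a covariate, 75 in 1 fit of 8 libraries, and 0 with no filter, quantile normalization, the rescaled sum, X, Y and mitochondrial genes kept or no trend (2126 to 2533 at an unadjusted p under 0.05). Leaving out a replicate gave 123 (without HFD replicate 6) to 752 (without NCD replicate 6), with 243 without NCD replicate 8 and 366 without HFD replicate 2. The 0 pathway genes became 3 with library type as a covariate, and 0 to 1 without a replicate. The X genes kept in 1 of the cold fits are all at 0 in both 22 °C libraries, and 781 and 840 are above 0 at 4 °C (replicates 2 and 11). The cause of the other shifts in these counts was not tested. A group left with 1 library is assumed to vary like the other one.

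Signs turned for members with small fold changes. In the cold, quantile normalization gave -0.0072 for Pparg, -0.23 for Rxrg and -0.26 for Ncoa2, median centring gave -0.14 for Rxrg and -0.25 for Ncoa2, and the rescaled sum gave -0.27 for Rxrg and -0.35 for Ncoa2. Leaving out a replicate moved Ppara from -0.35 to 0.30, Rxrg from -0.25 to 0.47, Ncor1 from -0.26 to 0.095 and Ncoa2 from -0.13 to 0.13, and the lowest value of Ppara, Rxrg and Ncoa2 came without 4 °C replicate 2. On the diet, quantile normalization gave -0.013 for Ppard, -0.082 for Rxrb, -0.00097 for Rxrg, -0.21 for Ncoa1 and -0.13 for Ncoa2. Median centring gave -0.18 for Ppara, -0.12 for Ppard, -0.16 for Rxrb, -0.068 for Rxrg, -0.21 for Ncoa1 and -0.10 for Ncoa2. Leaving out a replicate moved Ppard from -0.0067 to 0.47, Pparg from -0.12 to 0.998, Rxrb from -0.12 to 0.50, Rxrg from -0.048 to 0.62 and Ncoa2 from -0.057 to 0.56, and the lowest value of Pparg, Rxrb and Rxrg came without NCD replicate 8. Within library types, Nrip1 (-0.17, satellite-high), Ncor1 (0.23, satellite-low) and Ncoa2 (-0.033, satellite-high) turned in the cold, as did Ppara (0.33, satellite-low), Rxrg (-0.28, satellite-high) and, on the diet, Ncoa2 (-0.20, satellite-high). Of those that kept their sign when a replicate was left out, Nrip1 ran from 0.012 to 0.78 and Rxra from 0.19 to 0.67 in the cold, and Ppara from 0.0099 to 0.35, Ncoa1 from 0.047 to 0.25 and Nrip1 from 0.31 to 0.96 on the diet. Among the ratios, Nrip1 over Ncoa1 in the cold was 0.11 within the satellite-low libraries. On the diet Ppard over Pparg was -0.21 with a pseudocount of 1 and -0.50 within the satellite-high libraries, and without 1 replicate it ran from -1.03 to 1.17, Pparg over Ppara from -0.13 to 0.66 and Rxrg over Rxra from -0.76 to 0.0071.

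No paired analysis was possible because 22 °C and 4 °C share no replicate number and NCD and HFD share only number 6. Library type, read from the level of Gm10800, is no replicate number and was used as a covariate. The lowest member value, of Ppard, rested on about 232 fragments, and each group on 2 libraries.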
